A study of Mus musculus with 6 samples.

Results

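Levels of 9 genes of glycine and GABA transmission were examined in mouse brainstem. The members are the deposited rows with the gene symbols Slc6a5, Slc6a9, Slc32a1, Gad1, Gad2, Glra1, Glra3, Glrb and Gphn, and all 9 of them are among the 18058 genes of the table. RNA was sequenced from whole brainstems, snap-frozen at an age of 1 month, of 3 independent wild type (WT) C57BL/6J mice and of 3 independent Rag1-/- mice, which carry a targeted Rag1 allele (Rag1tm1Mom) in all cells and lack mature T and B cells. The mice of both groups were naïve. The Rag1-/- line is named B6.129S7-Rag1tm1Mom/J, and 129S7 alleles near Rag1 on chromosome 2 cannot be told apart from the targeted allele. The values are CPM, the reads of a gene scaled to a common library total, and the estimated depth lay between 31600000 and 46400000 reads per library.

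Glycine and GABA are the fast inhibitory transmitters of the brainstem, and glycine dominates in the medulla, the pons and the spinal cord. Inhibitory neurons make GABA from glutamate with the decarboxylases encoded by Gad1 and Gad2, glycinergic endings take glycine back up through the neuronal transporter encoded by Slc6a5, and both transmitters are loaded into vesicles by the transporter encoded by Slc32a1. Glycine opens chloride channels built from alpha subunits (Glra1, Glra3) and the beta subunit (Glrb), which binds the scaffold protein gephyrin (Gphn), and the transporter encoded by Slc6a9, found mainly on glia, clears glycine around the synapse. Loss of function in Slc6a5, Glra1 or Glrb causes exaggerated startle in mice and people.

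Before the comparison, the labels and the tissue were checked. Rag1 transcripts were at 0.246 ± 0.137 CPM in WT and at 3.18 ± 0.750 CPM in the Rag1-/- labelled libraries (SD, n = 3), so the targeted gene goes against its label at the level of RNA. The part of the gene that these reads cover is not given. All directions below therefore rest on the labels. Xist, which is transcribed from the inactive X chromosome, reached 172 and 177 CPM in the first and second WT replicate and did not exceed 2.93 CPM in the other 4 libraries. The Y-linked Ddx3y showed the reverse, at 0.283 and 0.215 CPM against 45.2 to 56.2 CPM. WT replicates 1 and 2 thus had a female pattern and the other 4 libraries a male pattern. All libraries labelled Rag1-/- are among the latter, so sex is partly confounded with genotype. Hox genes mark the hindbrain and spinal cord, and all 12 caudal Hox genes of the list reached a mean of 0.1 CPM over the libraries. Such a mean does not show the hindbrain origin of each library. Their summed level ranged from 3.42 CPM in replicate 2 to 61.0 CPM in replicate 1, both labelled Rag1-/-. Cerebellar and pituitary transcripts stood out in WT replicate 3, where the 5 cerebellar genes summed to 261 CPM and the 4 pituitary genes to 654 CPM. Pituitary genes also summed to 56.5 CPM in WT replicate 2, against 2.02 to 4.91 CPM in the other 4 libraries. Cerebellar genes summed to 79.0 CPM in replicate 2 labelled Rag1-/- and to between 16.2 and 23.5 CPM in the others.

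Slc6a5, Slc6a9, Gad1 and Gad2 are listed here with the 250 bases upstream of their deposited start, from RefSeq on GRCm38.p6 (the assembly also called mm10), each on the plus strand and written 5′ to 3′. They are shown because the 3 libraries highest for Slc6a5 and Slc6a9 were the 3 lowest for Gad1, and 2 of them were the lowest for Gad2. Capitals mark matches, on either strand, to the GC box letters GGGCGG or the TATA box letters TATAAA (reverse complements CCGCCC and TTTATA).
Slc6a5, chr7:49910049-49910298: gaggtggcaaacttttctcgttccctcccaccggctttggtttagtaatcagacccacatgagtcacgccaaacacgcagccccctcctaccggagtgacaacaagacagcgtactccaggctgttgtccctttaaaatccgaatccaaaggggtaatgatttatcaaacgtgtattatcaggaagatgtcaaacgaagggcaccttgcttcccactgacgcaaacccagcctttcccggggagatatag
Slc6a9, chr4:117835008-117835257: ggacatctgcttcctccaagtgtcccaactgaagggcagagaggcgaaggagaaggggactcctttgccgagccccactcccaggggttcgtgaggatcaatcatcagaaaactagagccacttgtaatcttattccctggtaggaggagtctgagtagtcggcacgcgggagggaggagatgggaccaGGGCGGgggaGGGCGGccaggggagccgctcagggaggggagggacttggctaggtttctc
Gad1, chr2:70561879-70562128: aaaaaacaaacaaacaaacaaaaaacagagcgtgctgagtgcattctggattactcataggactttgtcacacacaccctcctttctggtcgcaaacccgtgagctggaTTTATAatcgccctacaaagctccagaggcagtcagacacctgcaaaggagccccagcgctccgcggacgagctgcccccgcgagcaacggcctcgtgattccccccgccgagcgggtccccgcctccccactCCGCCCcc
Gad2, chr2:22622077-22622326: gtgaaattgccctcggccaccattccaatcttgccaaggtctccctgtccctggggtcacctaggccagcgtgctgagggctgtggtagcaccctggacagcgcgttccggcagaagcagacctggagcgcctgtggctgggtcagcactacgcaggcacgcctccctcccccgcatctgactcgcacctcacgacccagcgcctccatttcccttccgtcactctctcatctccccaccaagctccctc
The Slc6a9 window held 2 GC boxes, which begin 61 and 51 bases before the start. The Gad1 window held 1 GC box, 8 bases before the start, and 1 TATA box match, 141 bases before it. The Slc6a5 and Gad2 windows held neither. Of all 32851 promoter windows of this length in the table, 32.7% held the GC box letters and 12.4% the TATA box letters. The E-box letters CAGCTG and the homeodomain core TAATTA were found in none of these 4 windows, against 13% and 4.84% of all windows. The 4 windows held 11, 9, 17 and 13 CpG dinucleotides respectively, against a median of 6 over all windows. Of the 9 members, 8 matched an entry of the promoter table, with 11 entries in all, and Glra1 had none.

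The neuronal glycine transporter gene varied the most between brainstems. Slc6a5 (chromosome 7, 49910299 to 49959493, plus strand, 15 exons) was at 17.9, 40.9 and 15.4 CPM in the 3 WT replicates in order, and at 38.1, 8.30 and 30.5 CPM in the 3 labelled Rag1-/-. The highest library held 4.93 times the level of the lowest, the groups overlapped, and both genotypes contained high and low libraries. The mean was 24.7 ± 14.1 CPM in WT and 25.6 ± 15.5 CPM in the Rag1-/- labelled libraries (SD, n = 3). On the log2(CPM + 0.1) scale the difference was -0.074 (standard error 0.55, 95% interval -1.34 to 1.19, adjusted p = 0.970 by limma-trend), and a two-sided exact permutation test returned p = 0.9, where 3 against 3 libraries cannot go below 0.1. The interval covers levels from 0.396 to 2.28 times WT, and its direction turned with single libraries, from -0.49 without replicate 1 to 0.60 without replicate 2, both labelled Rag1-/-. The lowest value rests on an estimated 262 reads, for which counting alone gives an error of 6.17%. The spread within genotypes, 0.99 on the log2 scale, was larger than that of 99.4% of all tested genes.

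Glra1, which encodes the alpha subunit of the adult glycine receptor, followed the same libraries. Its transcripts (chromosome 11, 55514239 to 55608198, minus strand, 9 exons) were at 50.6, 73.7 and 46.1 CPM in WT and at 75.7, 40.1 and 72.4 CPM in the Rag1-/- labelled libraries. As for Slc6a5, WT replicate 2 and replicates 1 and 3 labelled Rag1-/- were the 3 highest libraries, followed by WT replicate 1, WT replicate 3 and replicate 2 labelled Rag1-/-. The mean was 56.8 ± 14.8 CPM in WT and 62.7 ± 19.7 CPM in the Rag1-/- labelled libraries (SD, n = 3). The log2 difference was 0.12 (standard error 0.25, 95% interval -0.45 to 0.69, adjusted p = 0.874 by limma-trend), which is smaller than the spread within genotypes of 0.44. Without replicate 2 labelled Rag1-/- it was 0.41, with an unadjusted p of 0.0467 and an adjusted p of 0.484, and its direction reversed to between -0.045 and -0.013 without replicate 1 or replicate 3 labelled Rag1-/- or WT replicate 3.

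The glial glycine transporter gene divided the libraries in the same way over a much narrower range. Slc6a9 (chromosome 4, 117835258 to 117869305, plus strand, 14 exons) was at 224, 254 and 223 CPM in WT and at 262, 222 and 255 CPM in the Rag1-/- labelled libraries. The 3 libraries highest for Slc6a5 were again the 3 highest, and the groups overlapped. The log2 difference was 0.076 (standard error 0.074, 95% interval -0.094 to 0.25, adjusted p = 0.712 by limma-trend), and the lowest and highest library differed 1.18-fold.

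**Figure D1:**
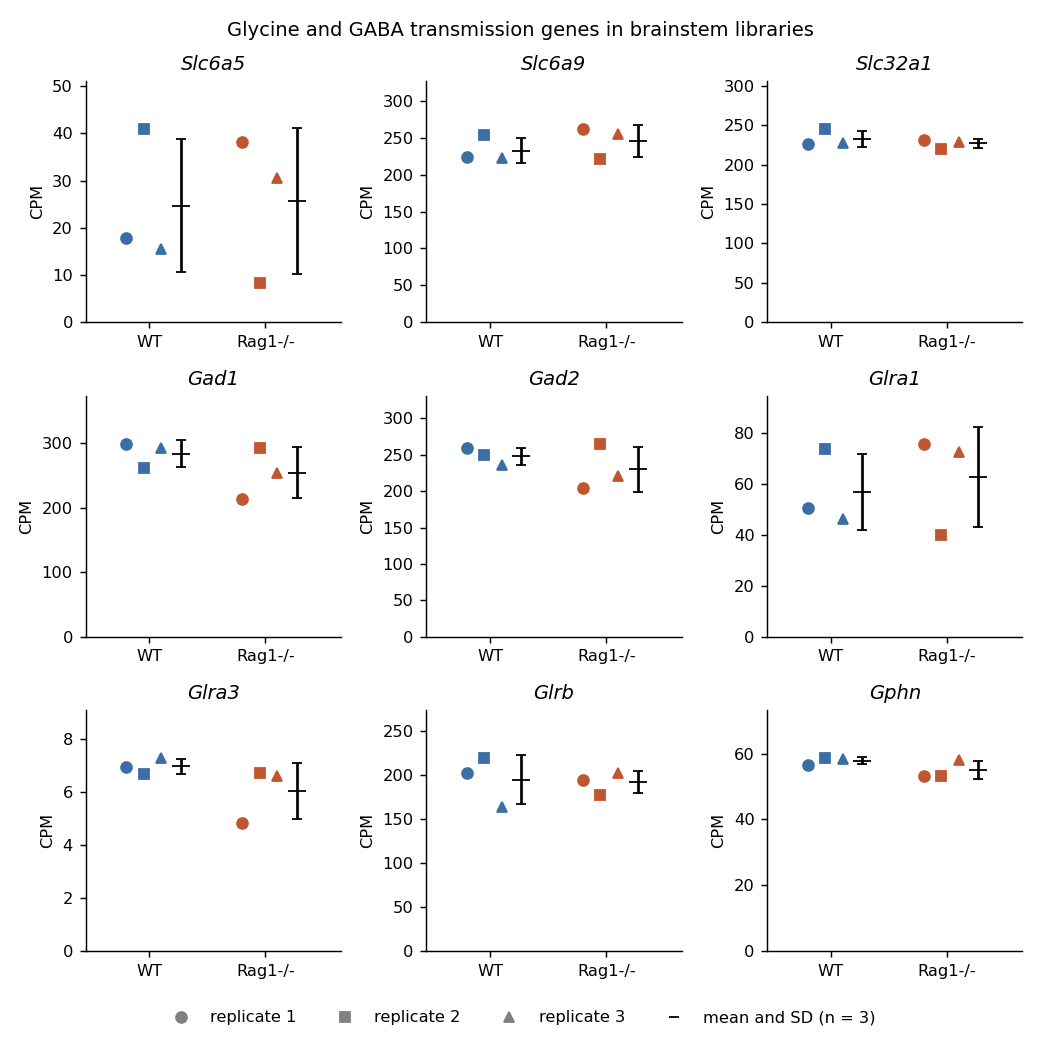
CPM (y axis, from 0) of the 9 genes in each library, with WT in blue and libraries labelled Rag1-/- in orange. Marker shapes give the replicate number and the black bars the mean and SD of 3 libraries. The groups overlap for all 9 genes, and Slc6a5 spans 8.30 to 40.9 CPM.

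The genes of both GABA-synthesising enzymes were lowest in replicate 1 labelled Rag1-/-, where the glycine transporter genes were high. Gad1 (chromosome 2, 70562129 to 70602014, plus strand, 17 exons) was at 299, 261 and 293 CPM in WT and at 214, 293 and 254 CPM in the Rag1-/- labelled libraries. The 3 libraries that were highest for Slc6a5 were the 3 lowest for Gad1, with replicate 1 labelled Rag1-/- at the bottom. The log2 difference between the genotypes was -0.17 (standard error 0.10, 95% interval -0.41 to 0.067, adjusted p = 0.544 by limma-trend). Without replicate 2 labelled Rag1-/-, all libraries of that label lay under all WT libraries and the log2 difference was -0.28 (unadjusted p = 0.0124, adjusted p = 0.471 by limma-trend). Without replicate 1 labelled Rag1-/- it was -0.056 (unadjusted p = 0.523, adjusted p = 0.894 by limma-trend).

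Gad2 (chromosome 2, 22622327 to 22693877, plus strand, 16 exons), which encodes the decarboxylase found mainly at nerve endings, was at 259.7, 249 and 236 CPM in WT and at 204, 265 and 221 CPM in the Rag1-/- labelled libraries. Replicate 2 labelled Rag1-/- was the highest of all 6 libraries and the other two of its group were the lowest. The log2 difference was -0.12 (standard error 0.088, adjusted p = 0.608 by limma-trend), and -0.23 without replicate 2 labelled Rag1-/- (unadjusted p = 0.00572, adjusted p = 0.471). Without replicate 1 labelled Rag1-/- it was -0.039 (unadjusted p = 0.654, adjusted p = 0.924 by limma-trend). Gad1, Slc32a1 and Gad2 lie on the chromosome that carries Rag1, at 31, 57 and 78.9 Mb from it.

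The vesicular transporter shared by both transmitters was among the steadiest members. Slc32a1 (chromosome 2, 158610758 to 158615747, plus strand, 2 exons) was at 226, 245 and 228 CPM in WT and at 231, 219.8 and 229 CPM in the Rag1-/- labelled libraries. As for Slc6a5, WT replicate 2 and replicates 1 and 3 labelled Rag1-/- were the highest libraries. Replicate 2 labelled Rag1-/- was again the lowest library and the groups overlapped, with 1.11-fold between the lowest and the highest library. The log2 difference was -0.040 (standard error 0.045, 95% interval -0.14 to 0.063, adjusted p = 0.750 by limma-trend), an interval that covers 0.906 to 1.04 times the WT level.

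None of the remaining receptor and scaffold genes passed the test. Glra3 (chromosome 8, 55940825 to 56125352, plus strand, 10 exons), an alpha subunit of more restricted distribution, was the lowest member at 6.96, 6.70 and 7.27 CPM in WT and 4.82, 6.72 and 6.61 CPM in the Rag1-/- labelled libraries. Replicate 1 labelled Rag1-/- stood below the other 5 libraries, which lay between 6.61 and 7.27 CPM. The log2 difference was -0.22 (standard error 0.13, adjusted p = 0.542 by limma-trend), and it was -0.065 without that library. Glrb (chromosome 3, 80843599 to 80913660, minus strand, 10 exons), the beta subunit, was at 202, 219 and 164 CPM in WT and at 195, 178 and 202 CPM in the Rag1-/- labelled libraries. Its log2 difference was -0.014 (standard error 0.098, adjusted p = 0.968 by limma-trend), and WT replicate 3 was the lowest library. The direction of this difference reversed in 7 of 18 alternatives, among them a term for Xist, which differed between the groups (0.22, unadjusted p = 0.0226, adjusted p = 0.231 by limma-trend). Gphn (chromosome 12, 78226655 to 78684769, plus strand, 24 exons) was at 56.6, 58.5 and 58.4 CPM in WT and at 53.3, 53.3 and 58.1 CPM in the Rag1-/- labelled libraries. Its log2 difference was -0.077 (standard error 0.049, 95% interval -0.19 to 0.034, adjusted p = 0.556 by limma-trend). Without replicate 3 labelled Rag1-/- it was -0.12 (unadjusted p = 0.0402, adjusted p = 0.495 by limma-trend).

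Over the 9 members, none had an adjusted limma-trend p under 0.05 and none had an unadjusted p of 0.05 or less. Over all 16762 tested genes, 0.0477% and 11.6% did. The groups did not overlap for 0 members, against 14.4% of all tested genes whose 3 Rag1-/- labelled values all lay under the 3 WT values and 3.98% for which they all lay above. The log2 difference was negative for 7 of the 9 and its median was -0.074, beside a median of -0.051 over all tested genes. No difference between the genotypes passed the test, and the intervals were narrow for Slc32a1 and Gphn and wide for Slc6a5 and Glra1.

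**Figure D2:**
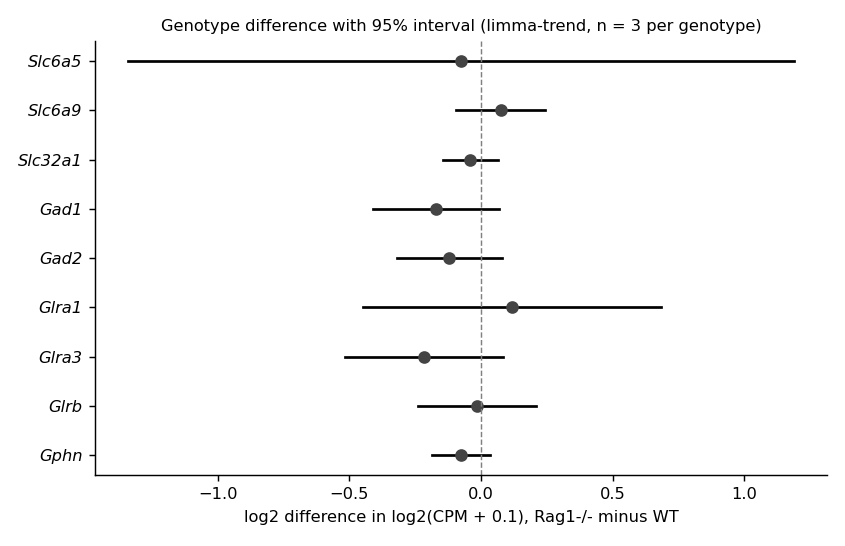
Difference between the libraries labelled Rag1-/- and WT in log2(CPM + 0.1) (x axis) for each gene (y axis), with its 95% interval from limma-trend over 3 libraries per genotype. All 9 intervals cross 0, and that of Slc6a5 reaches from -1.34 to 1.19.

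Pairs of members were compared within libraries, since such a ratio does not depend on how a library was scaled. The log2 ratio of Slc6a5 to Slc6a9 was -3.64, -2.63 and -3.85 in WT and -2.78, -4.72 and -3.06 in the Rag1-/- labelled libraries. The ratio of Slc6a5 to Gad2 varied more, from -4.98 in replicate 2 to -2.42 in replicate 1, both labelled Rag1-/-. These 2 libraries of 1 genotype therefore spanned the whole range of all 6. By contrast, the log2 ratio of Gad1 to Gad2 stayed between 0.06 and 0.31, with an SD of 0.09 over the 6 libraries. The ratio of Glra1 to Glra3 was 2.98 ± 0.41 in WT and 3.31 ± 0.70 in the Rag1-/- labelled libraries, that of Glra1 to Glrb was -1.80 ± 0.21 and -1.67 ± 0.42, and that of Gphn to Glrb was -1.74 ± 0.22 and -1.80 ± 0.07 (SD, n = 3). For the 6 pairs, the exact two-sided permutation p lay between 0.7 and 1, and after adjustment over the pairs it was 1 for each.

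Levels were compared between genes as CPM per kb of exon, and the order depends on the annotated exon length. Slc32a1 had the highest mean over the 6 libraries at 82.2 CPM per kb, followed by Gad1 at 76.0, Slc6a9 at 68.9, Glrb at 63.9, Gad2 at 41.6, Glra1 at 24.8, Gphn at 15.3, Slc6a5 at 10.2 and Glra3 at 1.0. The order was identical with the length of the longest transcript. Neighbours among the first 4 did not keep their order in every library: Slc32a1 exceeded Gad1 in 3 of 6 libraries, Gad1 exceeded Slc6a9 in 4 and Slc6a9 exceeded Glrb in 5. Gphn exceeded Slc6a5 in 4 of 6 libraries, and each other neighbour kept its place in 6 of 6. The 2 alpha subunits were thus separated in every library, with Glra1 between 16.6 and 31.4 CPM per kb and Glra3 between 0.741 and 1.12.

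**Figure D3:**
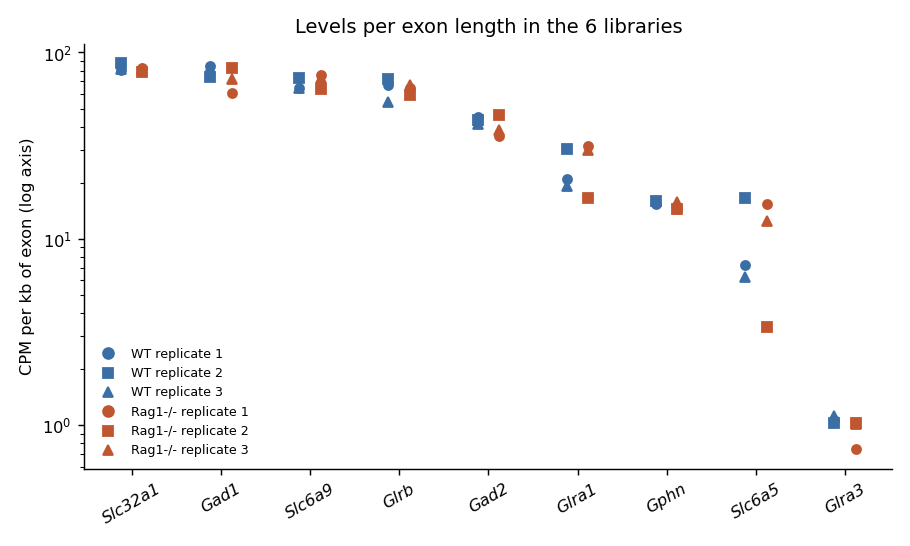
CPM per kb of exon (y axis, log scale) of the 9 genes, ordered by their mean, in each library (WT in blue, libraries labelled Rag1-/- in orange, marker shape by replicate). Slc6a5 spans 3.36 to 16.6 CPM per kb, while Gphn stays between 14.5 and 15.9.

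The genes with profiles nearest to those of 3 members were sought among genes whose mean reached 1 CPM, by the root mean square difference of centred log2(CPM + 0.1) over the 6 libraries. Nearest to Slc6a5 were Lamp5 (difference 0.197), Pax2 (0.210), Pax8 (0.212), Hoxa2 (0.279) and Lbx1 (0.310). Lamp5, for example, was at 49.4, 94.5 and 47.2 CPM in WT and at 87.2, 27.9 and 80.4 CPM in the Rag1-/- labelled libraries. Pax2 was at 3.47, 7.22 and 4.02 CPM and at 8.72, 2.06 and 7.57 CPM, the same division of libraries. Among 14032 other genes Glra1 came 20th, Slc6a9 came at place 520 and Glrb at place 554, while Gad1, Gad2 and Glra3 came at places 13350, 12632 and 13028. The measure depends on the size of the variation as well as its shape: the differences of Slc6a9 (0.718) and Glrb (0.721) were close to that of the steady Slc32a1 (0.772, place 2095), and in the reverse view Slc6a5 came at place 12231 from Glra1. Nearest to Glra1 were Nkx2-9 (0.083), Mafa (0.097), Mab21l2 (0.103), Tnfrsf23 (0.107) and Lingo4 (0.118). Nearest to Gad1 were Cpne5 (0.028), Lypd6 (0.034), Tmem64 (0.037), Tfpi (0.043) and Fam208b (0.046), with Glra3 at place 129 and Gad2 at place 174. This is a description over the same 6 libraries for every gene, which differ in depth, and no test was made of it.

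Hox transcripts moved with Slc6a5, Glra1 and Slc6a9 across libraries, but not with Glra3, which was lowest in the library with the highest Hox sum, nor with the order of Glrb. The summed level of the 12 caudal Hox genes was 29.0, 46.8 and 18.5 CPM in WT and 61.0, 3.42 and 49.5 CPM in the Rag1-/- labelled libraries. Ordered by this sum, the libraries stood exactly as they did for Slc6a9, and Slc6a5 and Glra1 differed from that order only among the 3 highest libraries. Slc32a1, over a narrow range, had the same 3 highest libraries and the same lowest library. Hoxa3 went from 2.75 CPM in replicate 1 to 0.0951 CPM in replicate 2, both labelled Rag1-/-, and Hoxa4 from 3.90 to 0.317 CPM, while the anterior Hoxa2 and Hoxb2 summed to 4.62 and 0.412 CPM in these 2 libraries. The Hoxa3 value in replicate 2 labelled Rag1-/- is near the floor, since an estimated 3 reads amount to 0.095 CPM there. None of the 12 caudal Hox genes had an unadjusted p (limma-trend) of 0.05 or less. With the log2 of the sum as a term in the fit, chosen after seeing the data, the standard error of the genotype difference fell from 0.55 to 0.20 for Slc6a5, from 0.25 to 0.099 for Glra1 and from 0.10 to 0.065 for Gad1. It changed less for Glra3 (0.132 to 0.122), Glrb (0.098 to 0.086) and Slc32a1 (0.045 to 0.043) and rose for Gphn (0.049 to 0.050). The term was chosen because it followed Slc6a5 and Glra1, so the fall for these genes is no independent result. In that fit Slc6a5 differed by 0.16 (95% interval -0.29 to 0.61) and Glra1 by 0.22 (-0.0072 to 0.45), with adjusted p of 0.755 and 0.409. Gad1 differed by -0.21 and Gad2 by -0.15 (unadjusted p = 0.0124 and 0.0384, adjusted p = 0.326 and 0.380 by limma-trend). Of all 16762 tested genes, 2091 had an unadjusted p (limma-trend) of 0.05 or less with this term. Gad1 and Gad2 were lowest in libraries that were high for Slc6a5. Neither the fall for Gad1 nor these values are therefore an independent result. The part of the dissection in the levels of these genes was not tested, and fewer cells of a type cannot be told apart from less RNA per cell in bulk tissue.

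**Figure D4:**
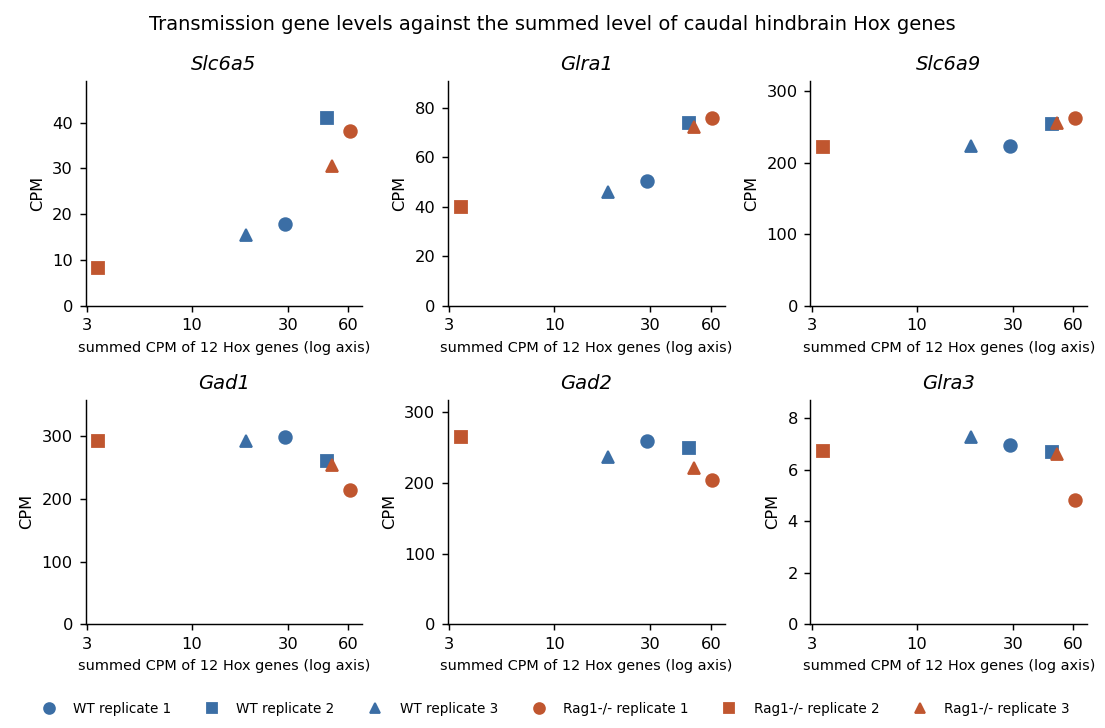
CPM of 6 genes (y axes, from 0) against the summed CPM of the 12 caudal Hox genes (x axis, log scale), 1 point per library (WT in blue, libraries labelled Rag1-/- in orange). Slc6a5 is at 8.30 CPM where the Hox sum is 3.42 and at 38.1 CPM where it is 61.0, while Gad1 is at 293 and 214 CPM in these libraries.

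Other genes of inhibitory transmission were read from lists. Neither of the other glycine receptor subunits passed the test: Glra2 was at 19.5, 17.6 and 16.8 CPM in WT and 17.1, 21.8 and 16.0 CPM in the Rag1-/- labelled libraries, and Glra4 was under 1 CPM in all 6 libraries. None of the 6 genes of GABA uptake and breakdown had an unadjusted p (limma-trend) of 0.05 or less, and the largest log2 differences were those of the transporters Slc6a12 (-0.49, adjusted p = 0.519) and Slc6a13 (-0.38, adjusted p = 0.507). None of 10 genes of glycine synthesis, cleavage and further transport did either, with Gldc of the glycine cleavage system at -0.25 and the transporter Slc7a10 at 0.14. In this list 2 of 10 genes, Psph and Gcsh, named here after their values were seen, lay above all WT values in the libraries labelled Rag1-/-, as did 3.98% of all tested genes. Of the gephyrin partners and other scaffold genes, 10 of 11 were in the table and none passed after adjustment. The dynein light chain gene Dynll1 differed by 0.14 (unadjusted p = 0.0372, adjusted p = 0.408 by limma-trend, exact permutation p = 0.2). The shares of all tested genes with an unadjusted p of 0.05 or less were 9.29% lower and 2.27% higher.

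Slc12a5, which encodes the neuronal potassium chloride cotransporter that keeps chloride low and so makes glycine and GABA inhibitory, was at 601, 614 and 600.3 CPM in WT and at 522, 526 and 559.6 CPM in the Rag1-/- labelled libraries. The groups did not overlap and the log2 difference was -0.18 (standard error 0.044, unadjusted p = 0.00361, adjusted p = 0.319 by limma-trend). Of all tested genes, 14.4% lay under all WT values, and 9.29% were lower with an unadjusted p (limma-trend) of 0.05 or less. The cotransporter Slc12a2, which moves chloride into cells, differed by 0.020 (adjusted p = 0.939). Of the 12 GABA-A receptor subunit genes, 12 had a negative log2 difference, with a median of -0.11, and none passed after adjustment. The median over all tested genes was negative too, at -0.0505, and the share of all genes with a negative difference was not counted. Gabrg3 differed by -0.23 (adjusted p = 0.470).

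Cell type genes were read beside these values. The sum of the 10 neuron genes ranged from 5740.1 to 6522 CPM in WT and from 5475 to 6530.3 CPM in the Rag1-/- labelled libraries, and none had an unadjusted p (limma-trend) of 0.05 or less. Of these, 6 had a positive and 4 a negative log2 difference, with a median of 0.010 (Snap25 -0.033, Syt1 -0.15). Of the 3 glutamate transporter genes of excitatory neurons, 2 had a negative and 1 a positive difference, and Slc17a6 differed by -0.10 and Slc17a7 by -0.34 (unadjusted p = 0.0199, adjusted p = 0.373). All 5 oligodendrocyte genes lay above all WT values in the 3 libraries labelled Rag1-/-, among them Mbp (0.35), each with an unadjusted p of 0.05 or less and an adjusted p of at least 0.258. Of all tested genes, 3.98% lay above all WT values, and 2.27% were higher with an unadjusted p (limma-trend) of 0.05 or less. Of the 6 astrocyte genes, 4 had a positive and 2 a negative difference, with a median of 0.026 (Gfap -0.12, Aqp4 0.185 with an unadjusted p of 0.0185 and an adjusted p of 0.372 by limma-trend), and their sum ranged from 2878 to 3017 CPM in WT and from 3044 to 3176 CPM under the other label. Of the 5 microglia genes 4 had a negative and 1 a positive difference, with a median of -0.030 (Cx3cr1 -0.0045, P2ry12 0.19). Median log2 differences were 0.016 for the inhibitory neuron transcription factors, which include Pax2 and Lhx1, -0.038 for midbrain genes (En1, En2), -0.61 for cerebellum (Gabra6, Cbln3), -0.017 for thalamus (Tcf7l2, Lef1), -0.19 for forebrain (among them Neurod6), -0.44 for choroid plexus (Ttr, Folr1) and -3.88 for pituitary (Gh, Prl). Unadjusted p of 0.05 or less were found for 1 midbrain gene in each direction (En1 0.31, Otx2 -0.41), for 1 choroid plexus gene (Clic6 -0.45) and for 3 pituitary genes (Gh, Prl and Cga, all lower), of which Otx2, Clic6 and Cga are named after their values were seen. None of these lists held a gene with an adjusted p under 0.05, and the part of these tissues in the member values was not tested.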

How the data were processed

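Total RNA from brainstems of 3 WT and 3 Rag1-/- mice was sequenced. The authors demultiplexed reads with bcl2fastq, aligned them to mm10 with STAR 2.5.3a, quantified them in Partek Flow against RefSeq transcripts, and deposited CPM, scaled to the library total, for 18058 genes. Any filter before deposit is not given in the sources used here, nor is a strand setting, so overlapping and antisense genes cannot be separated. Gene coordinates are those of the deposited table.

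Groups came from the sample titles. log2(CPM + 0.1) was tested for the 16762 genes whose mean reached 0.1 CPM by limma-trend (limma 3.58.1, R 4.3.3), with Benjamini-Hochberg adjustment over all of them. The fit was tested on simulated data first. Exact permutation tests over libraries were added for single genes and for log2 ratios of 6 gene pairs. The members, the lists and the tests were chosen with earlier results of these data known. Genes named beyond the members were, of each pathway list, those with an adjusted p under 0.05 and the 2 largest differences, of each cell type or region list the first 2 tested genes, and the 5 nearest profiles. Some genes that this rule names are not reported here. Depth was estimated from the CPM step of 1 read. Whole reads were not recovered (between 85.1% and 86.4% of low values whole within 0.1 read), so no count test was run. Exon lengths are from GENCODE M21 transcripts with a RefSeq accession, and upstream sequences from RefSeq (GRCm38.p6). Alternatives were other pseudocounts, filters, scalings and variance models, a replicate block, a term for Xist, centring on neuron genes and leaving out each library. A term for Hox genes and leaving out 2 libraries together were chosen after seeing the data.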

Additional observations from a re-analysis of the deposited data

How the results depend on the processing

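The number of members with an adjusted limma-trend p under 0.05 was 0 in each of the 18 alternatives, 2 of which were chosen after seeing the data. Gene by gene, 146 of 162 values kept their direction and side of the threshold and 16 reversed. Median-of-ratios rescaling gave log2 differences of 0.00533 for Slc32a1 and 0.0318 for Glrb, quantile normalization 0.0176 for Glrb, and a term for Xist 0.465 for Slc6a5 and 0.224 for Glrb, the 1 member with an unadjusted p of 0.05 or less there. The term for Hox genes gave 0.161 for Slc6a5 and 0.0113 for Glrb, with 2 members (Gad1, Gad2) at that threshold. Of all 16762 tested genes, 2729 met the threshold with the Xist term and 2091 with the Hox term. Without the 2 libraries with Cbln3 over 20 CPM, Slc6a5 was at 0.331, 2 members (Gad1, Gad2) met it, 3 members lay under and 1 above all WT values. There, 1961 of all 16729 tested genes met the threshold, and non-overlap was not counted over all genes.

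Leaving out 1 library gave 0 to 3 members at an unadjusted p of 0.05 or less, 0 to 3 under and 0 to 1 above all WT values, with 3, 3 and 1 without replicate 2 labelled Rag1-/-. Without that library, 1722 of all 16770 tested genes had an unadjusted p (limma-trend) of 0.05 or less. Non-overlap was not counted over all genes with 1 library left out, where it arises more easily. The log2 difference then ranged from -0.491 to 0.600 for Slc6a5, from -0.0448 to 0.413 for Glra1, from -0.133 to 0.0749 for Glrb, from -0.282 to -0.0559 for Gad1, from -0.226 to -0.0386 for Gad2, from -0.300 to -0.0652 for Glra3, from 0.0283 to 0.149 for Slc6a9, from -0.0605 to -0.00447 for Slc32a1 and from -0.118 to -0.056 for Gphn. Differences of log2 ratios ranged from -0.520 to 0.452 for Slc6a5 to Slc6a9, -0.117 to 0.00835 for Gad1 to Gad2, 0.0204 to 0.712 for Glra1 to Glra3, -0.0179 to 0.375 for Glra1 to Glrb, -0.144 to 0.0626 for Gphn to Glrb and -0.453 to 0.827 for Slc6a5 to Gad2. Where a value reversed, the cause was not tested.

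Same-numbered libraries did not deviate together (correlations 0.0926, -0.22 and -0.0183, and 1 of 6 libraries correlated best with its own number), so no pairing by number was seen. A shared litter or preparation was not tested. With a replicate block, 0 members had an unadjusted p of 0.05 or less, and 3 genes in all had an adjusted p under 0.05, against 8 without it. With 3 libraries per genotype, the precision is lowest for Slc6a5 and Glra1.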
